A study of Homo sapiens with 8 samples.

Results

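The GADD45, BTG and sestrin families are groups of stress-inducible genes whose products slow or stop cell growth. Their 9 human members examined here, GADD45A, GADD45B, GADD45G, BTG1, BTG2, BTG3, SESN1, SESN2 and SESN3, were taken by symbol from a table of 57169 rows. All 9 were among the 21378 genes that passed the filter on low counts. The table came from 8 RNA-seq libraries of the human colorectal carcinoma lines HCT116 and SW620, 2 libraries in each of 4 groups. HCT116 is a line from a colon carcinoma, and SW620 is a line from a lymph node metastasis of a colon carcinoma. Each line received either 5-fluorouracil (5-FU), the thymidylate synthase inhibitor, or AFZC, which the series title describes as an aptamer-modified metal-organic framework loaded with 5-FU and studied for peroxidative cell death. Both agents were given for 24 hours at their own IC50, the inhibitory dose at the midpoint of the response. The groups are therefore HCT116 with 5-FU, HCT116 with AFZC, SW620 with 5-FU and SW620 with AFZC, and every cell analysed here had received 5-FU in free or carried form. Untreated cells and the empty carrier were not analysed here, so each change is AFZC relative to 5-FU and not relative to resting cells.

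GADD45 proteins are small acidic proteins that bind the kinase MAP3K4 upstream of p38 and JNK, and also PCNA, the cyclin-dependent kinase CDK1 and the inhibitor p21. BTG proteins, with their relatives TOB1 and TOB2, carry the CNOT7 and CNOT8 deadenylases to mRNAs and so shorten poly(A) tails. Sestrins bind the GATOR2 complex and hold back mTORC1, and SESN2 is a leucine sensor. GADD45A, BTG2, SESN1 and SESN2 are known to be induced by DNA damage, SESN3 and BTG1 are known as FOXO targets, and SESN2 is also known as an ATF4 target.

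In HCT116, 5 members rose under AFZC: BTG2, SESN1, SESN2, BTG3 and GADD45A. In SW620, SESN1 rose, and BTG1 and BTG2 fell. BTG2 thus moved in opposite directions in the 2 lines, with log2 fold changes of 2.18 and -1.12. Over all genes 5.87% were called higher and 3.74% lower in HCT116, and 11.6% and 6.95% in SW620. The HCT116 calls of BTG3 and GADD45A and the SW620 calls of SESN1 and BTG1 were lost in some of the other settings run.

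The sequence upstream of the start is shown for the 4 genes the results turn on: BTG2, called in both lines in opposite directions, SESN2, called in HCT116, SESN1, called in the same direction in both lines, and BTG1, called in SW620. RefSeq promoter entries (GRCh38.p14) matched 8 of the 9 members (all but GADD45A), with 10 entries in all. Each run is given 5′ to 3′ and ends at the RefSeq start or earlier, where a GENCODE 29 exon of the gene begins. Capitals mark CCAAT in either orientation (ATTGG on the other strand) and, in BTG1, GTAAACA in either orientation.
BTG2 (chr1:203305269-203305490, plus strand): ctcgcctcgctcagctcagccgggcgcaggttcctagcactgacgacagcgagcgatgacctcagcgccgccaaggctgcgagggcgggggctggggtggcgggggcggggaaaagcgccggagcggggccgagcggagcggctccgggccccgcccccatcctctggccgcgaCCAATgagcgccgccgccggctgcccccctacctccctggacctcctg
SESN2 (chr1:28259268-28259517, plus strand): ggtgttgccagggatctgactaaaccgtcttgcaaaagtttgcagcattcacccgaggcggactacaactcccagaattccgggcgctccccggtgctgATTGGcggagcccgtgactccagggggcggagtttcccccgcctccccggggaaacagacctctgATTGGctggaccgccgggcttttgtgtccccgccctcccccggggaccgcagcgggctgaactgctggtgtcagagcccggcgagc
SESN1 (chr6:109008989-109009238, minus strand): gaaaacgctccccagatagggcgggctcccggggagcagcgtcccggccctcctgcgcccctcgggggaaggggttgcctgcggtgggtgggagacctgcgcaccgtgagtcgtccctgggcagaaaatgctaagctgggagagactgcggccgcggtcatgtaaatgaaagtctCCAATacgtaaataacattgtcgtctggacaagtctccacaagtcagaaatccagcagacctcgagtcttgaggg
BTG1 (chr12:92145898-92146096, minus strand): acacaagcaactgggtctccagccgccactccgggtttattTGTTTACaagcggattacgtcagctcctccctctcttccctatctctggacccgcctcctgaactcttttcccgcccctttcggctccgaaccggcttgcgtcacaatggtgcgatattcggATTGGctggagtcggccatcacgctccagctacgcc
The SESN1 run is the most internal of its 3 RefSeq starts. In BTG1, GTAAACA, the FOXO core site (both strands), lay at -209 to -203, and 2.98% of 35116 promoter windows of 250 bases held it.

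CCAAT, the letters that the factor NF-Y binds, lay at -76 to -72 in BTG2, at -86 to -82 and -151 to -147 in SESN2, at -75 to -71 in the SESN1 run and at -87 to -83 in BTG1. Of the 8 genes with an entry, 6 had CCAAT between -100 and -60 of a start: GADD45B, GADD45G, BTG1, BTG2, SESN1 and SESN2. It was found in that window in 9.94% of all promoter entries, and anywhere in the 250 bases in 32.0%. These shares are per entry, while a gene counted if any of its entries had a match. SESN1 has several entries, and the outermost of them held no CCAAT. The motifs were chosen after the files were opened and this window after the matches were seen, so these are descriptions of letters and not of binding.

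Library totals ran from 31991561 to 40590291 counts. TMM factors, which scale for RNA composition, were 0.816 to 0.867 in SW620 with 5-FU, 1.07 to 1.11 in SW620 with AFZC and 1.02 to 1.07 in HCT116. Summed epithelial markers (8 genes) were 3501 to 4328 CPM (counts per 1e+06 TMM-scaled counts of the library) in HCT116 with 5-FU and 4887 to 7946 with AFZC, and 15195 to 16532 and 5016 to 5464 in SW620. In SW620 the sum followed the keratins, with KRT8 at 7583 to 8337 CPM under 5-FU and 1643 to 2231 under AFZC, while EPCAM was at 582 to 658 and 463 to 481, and CDX2 at 47.9 to 48.9 and 36.2 to 48.3. CDX1 was at 8 counts or fewer in every library, and VIL1 at 4 or fewer in HCT116 with 5-FU. Leukocyte markers (5 genes) summed to 0.371 to 0.804 CPM in HCT116, 5.75 to 8.01 in SW620 with 5-FU and 16.3 to 42.3 in SW620 with AFZC, almost all of it LYZ, while PTPRC stayed at 2 counts or fewer. Fibroblast markers (5 genes) summed to 40.1 to 71.6 CPM and endothelial markers (4 genes) to 4.50 to 5.56 CPM, except 13.6 to 18.3 in SW620 with AFZC. The part of these shifts in the results below was not tested, and in bulk RNA fewer cells of a type cannot be told apart from less RNA per cell.

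**Figure D1:**
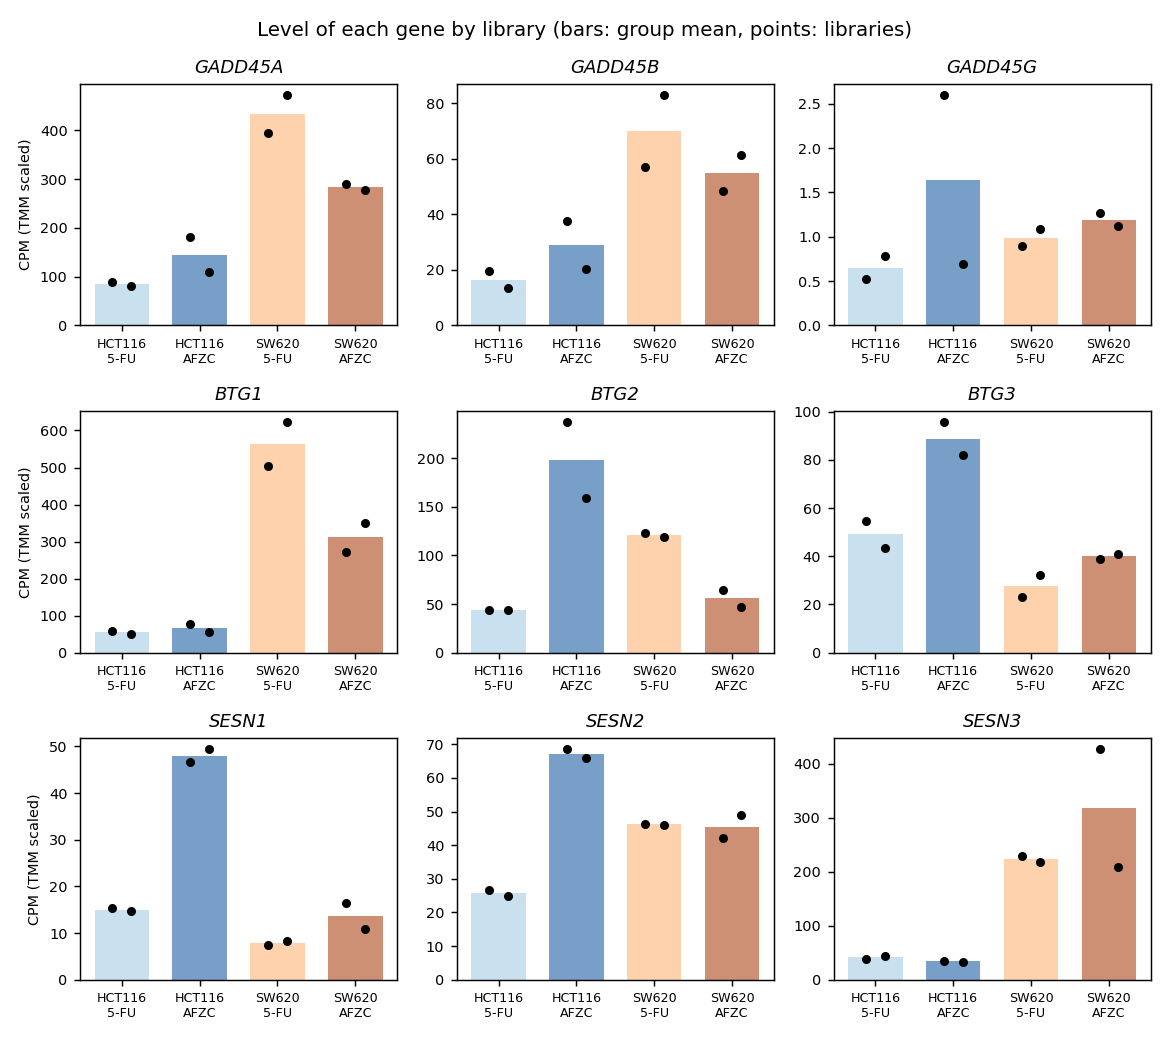
Level of each of the 9 genes in the 8 libraries, in CPM with TMM scaling on the vertical axis (the scale differs between panels), with points for libraries and bars for group means. BTG2 is highest in the 2 HCT116 AFZC libraries, at 159 and 237 CPM, and GADD45A, GADD45B, BTG1 and SESN3 are higher in all 4 SW620 libraries than in all 4 HCT116 libraries.

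BTG2, whose product recruits the CNOT7 deadenylase, showed the largest change of the 9 in HCT116. Its level was 43.8 and 43.5 CPM in the HCT116 5-FU libraries and 237 and 159 CPM under AFZC. The groups did not overlap, although the AFZC libraries differed from each other. Here and below, overlap describes 2 libraries against 2 and is not a test. The group means were 43.6 ± 0.249 and 198 ± 55.1 CPM (SD, n = 2). BTG2 rose by 2.18 ± 0.205 on the log2 scale (SE here and below, adjusted p = 8.53e-05). In SW620 its level was 123 and 119 CPM under 5-FU and 64.2 and 47.3 CPM under AFZC, again without overlap but in the other direction. The log2 fold change there was -1.12 ± 0.199 (adjusted p = 0.00219). The difference between the 2 effects was -3.30 ± 0.286 (adjusted p = 8.15e-05). Both calls and that of the difference held in every setting run.

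BTG1, a gene linked to quiescence in lymphocytes, behaved differently. In HCT116 it stood at 59.5 and 49.2 CPM under 5-FU and 77.4 and 56.6 CPM under AFZC, and these groups overlapped (log2 fold change 0.30 ± 0.202, adjusted p = 0.394). In SW620 it stood at 503 and 622 CPM under 5-FU and at 272 and 351 CPM under AFZC. The 2 SW620 groups were apart, and BTG1 fell with a log2 fold change of -0.85 ± 0.201 (adjusted p = 0.0113). The call was lost when library sizes replaced TMM factors (log2 fold change -0.47, adjusted p = 0.0743), without replicate 2 of SW620 5-FU (adjusted p = 0.113) and without replicate 1 of SW620 AFZC (adjusted p = 0.0728). The difference between the lines was -1.16 (adjusted p = 0.0238), and that call was lost under library sizes only (adjusted p = 0.0619) and when 5 of the 8 libraries were left out in turn (adjusted p up to 0.119).

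BTG3, a binder of the cell-cycle factor E2F1, rose in HCT116 from 54.7 and 43.5 CPM to 95.6 and 82.0 CPM. The groups did not overlap, and the log2 fold change was 0.85 ± 0.187 (adjusted p = 0.0135). This call did not survive leaving out replicate 1 of 5-FU (adjusted p = 0.0685), replicate 2 of 5-FU (0.151) or replicate 1 of AFZC (0.084). In SW620 BTG3 was at 23.2 and 32.4 CPM under 5-FU and 38.9 and 41.0 CPM under AFZC (log2 fold change 0.52 ± 0.189, adjusted p = 0.0727), without overlap but short of the threshold. It passed there with library sizes only (log2 fold change 0.90, adjusted p = 0.00293) and with no filter on low counts (adjusted p = 0.037). The difference between lines was -0.33 (adjusted p = 0.481).

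SESN2, the leucine sensor, rose in HCT116 from 26.7 and 24.8 CPM to 68.5 and 66.1 CPM, 2 tight groups far apart. The log2 fold change was 1.38 ± 0.154 (adjusted p = 0.000263), and the call held in every setting run. In SW620 the levels were 46.4 and 46.1 CPM under 5-FU and 42.1 and 48.9 CPM under AFZC, which overlap, with a log2 fold change of -0.02 ± 0.151 (adjusted p = 0.952). The difference of the effects was -1.41 ± 0.215 (adjusted p = 0.00186), and this call also held in every setting run.

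SESN1, the longest gene of its family, rose in HCT116 from 15.3 and 14.7 CPM to 46.6 and 49.3 CPM. The groups were far apart, and the log2 fold change was 1.67 ± 0.216 (adjusted p = 0.000749), held in every setting run. In SW620 it went from 7.44 and 8.34 CPM to 16.5 and 10.9 CPM, without overlap (log2 fold change 0.80 ± 0.219, adjusted p = 0.0236). Replicate 1 of AFZC was the higher of the pair, and without it the log2 fold change was 0.48 (adjusted p = 0.195). The SW620 call was lost also without replicate 1 of 5-FU (adjusted p = 0.128), without replicate 2 of 5-FU (0.0904) and in a fit to the SW620 groups alone (0.064). The difference between lines was -0.88 (adjusted p = 0.0898), so the rises in the 2 lines were not shown to differ, although without replicate 1 of SW620 AFZC the test passed (-1.18, adjusted p = 0.0229).

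SESN3, the FOXO-regulated sestrin, did not pass the test in either line. In HCT116 it was at 39.2 and 44.4 CPM under 5-FU and at 34.8 and 33.9 CPM under AFZC, without overlap (log2 fold change -0.28, adjusted p = 0.561). In SW620 it was at 229 and 218 CPM under 5-FU and at 427 and 208 CPM under AFZC, a pair that straddles the 5-FU libraries (log2 fold change 0.51 ± 0.257, adjusted p = 0.2). That value rested on replicate 1 of AFZC: it was -0.10 (adjusted p = 0.797) without that library and 0.93 (adjusted p = 0.00158) without replicate 2. It also passed with library sizes only (0.89, adjusted p = 0.0334) and with no filter on low counts (adjusted p = 0.0266).

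GADD45A, the best known of the GADD45 genes, rose in HCT116 from 90.0 and 81.4 CPM to 180 and 109 CPM. Replicate 1 of AFZC stood well above replicate 2, but both were above the 5-FU libraries (log2 fold change 0.76 ± 0.211, adjusted p = 0.0401). Without replicate 1 of AFZC the log2 fold change was 0.34 (adjusted p = 0.404), and without replicate 1 or 2 of 5-FU the adjusted p was 0.191 or 0.238. In SW620 GADD45A was at 395 and 472 CPM under 5-FU and 291 and 277 CPM under AFZC. The groups did not overlap, but the test fell short of the threshold (log2 fold change -0.61 ± 0.210, adjusted p = 0.0606). The call appeared with no filter on low counts (adjusted p = 0.00427), in a fit to the SW620 groups alone (0.0313), with DESeq2 (0.0318) and without replicate 1 or 2 of HCT116 AFZC (0.0133 and 0.0137). With library sizes only the log2 fold change was smaller, -0.23 (adjusted p = 0.43). The difference between lines was -1.37 (adjusted p = 0.0129), and was lost without replicate 1 or 2 of HCT116 5-FU (adjusted p = 0.057 and 0.0743) or replicate 2 of SW620 5-FU (0.0543).

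GADD45B, which TGF-beta and NF-kappaB signalling induce, was at 19.8 and 13.3 CPM in HCT116 with 5-FU and at 37.5 and 20.5 CPM with AFZC. These groups did not overlap, but the test was not passed (log2 fold change 0.81 ± 0.301, adjusted p = 0.122). It passed with no filter on low counts (adjusted p = 0.00109), with DESeq2 (0.0456) and without replicate 2 of AFZC (0.0141). In SW620 it was at 57.2 and 82.9 CPM with 5-FU and 48.5 and 61.5 CPM with AFZC, which overlap (log2 fold change -0.35, adjusted p = 0.451). GADD45G, the third GADD45 gene, was near the floor, with 46 counts over the HCT116 5-FU libraries and 123 with AFZC, 62 over the SW620 5-FU libraries and 85 with AFZC. Its levels were 0.519 and 0.786 CPM, then 2.60 and 0.694 CPM, in HCT116, which overlap (log2 fold change 1.33 ± 0.596, adjusted p = 0.187). Without replicate 2 of AFZC it passed (log2 fold change 1.96, adjusted p = 0.0358). In SW620 it was at 0.895 and 1.09 CPM and at 1.27 and 1.12 CPM, without overlap (log2 fold change 0.26, adjusted p = 0.812).

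**Figure D2:**
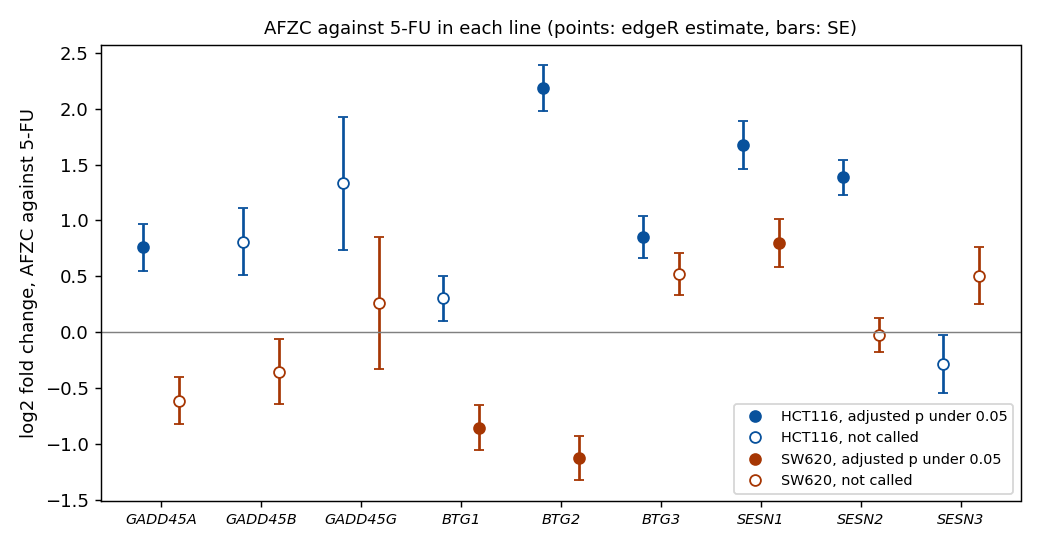
Log2 fold change of AFZC against 5-FU in HCT116 (blue) and SW620 (brown), with SE bars and filled points for adjusted p under 0.05. In HCT116, 5 points are filled and all lie above 0, from 0.76 for GADD45A to 2.18 for BTG2; in SW620 BTG1 and BTG2 are filled below 0 and SESN1 above.

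Counted over the 9 members, 5 rose and 0 fell in HCT116 by edgeR's quasi-likelihood test, with a median log2 fold change of 0.85; at an unadjusted p under 0.05 the counts were 7 and 0, and by DESeq2 6 and 0. Over all genes tested 5.87% were called higher and 3.74% lower there, and the median was 0.00. Without replicate 1 or 2 of 5-FU or replicate 1 of AFZC, 3 members were called higher. In SW620, 1 of 9 rose and 2 fell, with a median of -0.02, against 11.6% higher and 6.95% lower over all genes. For the difference of the 2 effects, 4 of 9 members were lower in SW620 (GADD45A, BTG1, BTG2 and SESN2) and 0 higher by edgeR; at an unadjusted p under 0.05 the counts were 6 lower and 0 higher, and by DESeq2 5 and 0. Over all genes 5.65% were higher and 4.14% lower in that comparison. The lower count was 2 without replicate 1 or 2 of HCT116 5-FU or replicate 2 of SW620 5-FU. The difference uses the same libraries as the 2 treatment comparisons.

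More members were called between the lines than between the agents. Under 5-FU 6 of 9 members were higher in SW620 and 2 lower (26.5% and 28.2% of all genes), and under AFZC 4 were higher and 4 lower (25.1% and 24.2% of all genes). BTG1, with log2 differences of 3.37 (adjusted p = 6.24e-08) under 5-FU and 2.22 (adjusted p = 2.2e-06) under AFZC, and SESN3, with 2.42 (1.61e-05) and 3.21 (2.63e-06), were higher in SW620 under both agents. GADD45A was higher in SW620 by 2.34 under 5-FU (adjusted p = 1.72e-06) and by 0.97 under AFZC (0.00206). GADD45B was higher by 2.08 (0.000193) and 0.92 (0.0247). SESN1 was lower in SW620 by log2 values of -0.93 (0.00302) and -1.80 (1.92e-05), and BTG3 by -0.82 (0.0026) and -1.15 (0.000245). For BTG2 and SESN2 the order of the lines turned over: they were higher in SW620 under 5-FU, by 1.48 (4.44e-05) and 0.84 (0.000452), and lower under AFZC, by -1.83 (9.39e-06) and -0.56 (0.00759). The AFZC calls of SESN2 and GADD45B were lost without, respectively, replicate 1 of SW620 AFZC (adjusted p = 0.0645) and either replicate 2 of AFZC (up to 0.153). GADD45G differed in neither case (0.60, adjusted p = 0.425, and -0.47, adjusted p = 0.528).

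Ordered by level, GADD45A and GADD45B ran HCT116 5-FU, HCT116 AFZC, SW620 AFZC, SW620 5-FU; the steps between neighbours that did not pass were the last for both genes and also the first for GADD45B. BTG1 had the same order, and only its first step did not pass. SESN3 ran HCT116 AFZC, HCT116 5-FU, SW620 5-FU, SW620 AFZC, and only the step between lines passed. SESN1 and BTG3 were lowest in SW620 5-FU and highest in HCT116 AFZC. BTG2 and SESN2 were lowest in HCT116 5-FU and highest in HCT116 AFZC, with the SW620 groups between. Comparisons of HCT116 AFZC with SW620 5-FU, or of HCT116 5-FU with SW620 AFZC, mix line and agent and were not tested.

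Within each family the dominant member per length (CPM per kb of exonic length, a level) was not the same in the 2 lines for the BTG genes and the sestrins. GADD45A made up 82.8% to 86.3% of the summed GADD45 level in each group mean, and GADD45G at most 1.34%. In HCT116 with 5-FU, BTG3, BTG2 and BTG1 made up 43.9%, 32.9% and 23.1% of the BTG level, and with AFZC BTG2 made up 57.5%. In SW620 BTG1 led with 67.2% under 5-FU and 62.8% under AFZC. Among sestrins, SESN2 led in HCT116 (52.0% and 60.7%) and SESN3 in SW620 (58.6% and 63.5%, with an SD of 12.5 for the latter), while SESN1 was 4.27% in SW620 with 5-FU. The summed GADD45 level was 49.6 ± 4.92 and 84.9 ± 30.9 CPM per kb in HCT116 and 243 ± 35.0 and 164 ± 0.363 in SW620, each as 5-FU then AFZC (SD, n = 2). The summed BTG level was 48.3 ± 5.01 and 124 ± 27.2 in HCT116, and 172 ± 19.2 and 102 ± 7.76 in SW620. The summed sestrin level was 14.3 ± 0.138 and 32.1 ± 0.176 in HCT116, and 36.1 ± 0.653 and 45.9 ± 14.0 in SW620. These sums were not tested.

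**Figure D3:**
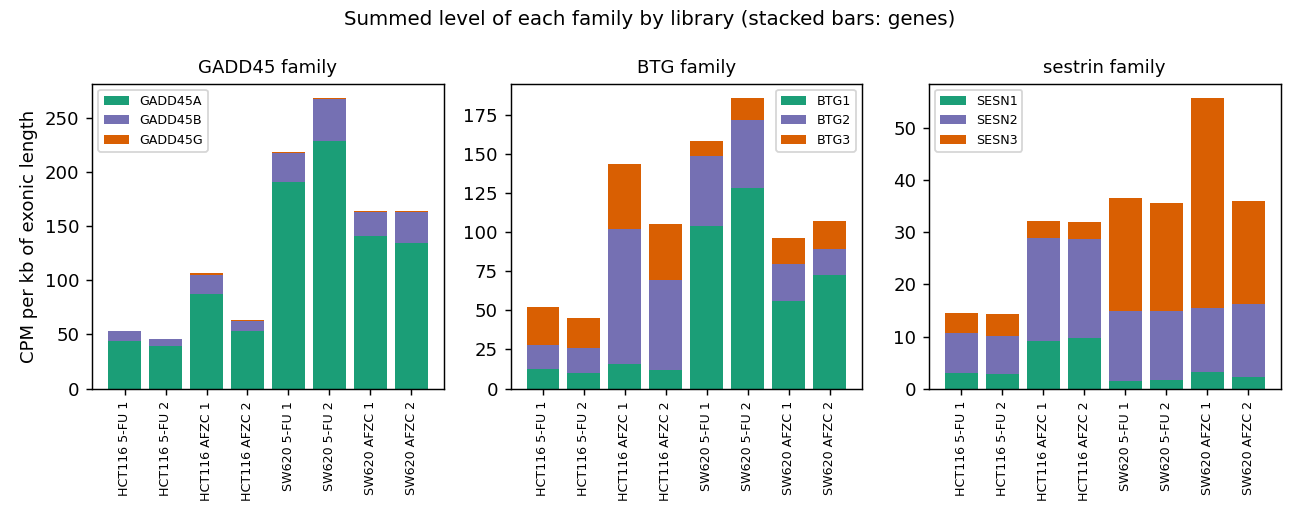
Summed level of each family in each library, in CPM per kb of exonic length (vertical axis), stacked by gene. BTG2 takes the largest part of the BTG bar in HCT116 AFZC and BTG1 in all 4 SW620 libraries; SESN3 makes up most of the sestrin bar in SW620.

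The neighbours of these genes were counted in 7 lists, to be read against the 5.87% of all genes called higher and 3.74% lower in HCT116 and the 11.6% and 6.95% in SW620. For each named call of a list gene, the number of the 14 other settings that lost it is given, and a call named without such a number held in all 14. The first list held 25 DNA damage response genes other than the members, such as the p21 gene CDKN1A and the ubiquitin ligase gene MDM2. In HCT116 24 of the 25 rose, with a median log2 fold change of 1.76. In SW620 4 rose and 3 fell, with a median of 0.00. These genes were chosen as targets of 1 transcription factor of that response. They are a part of it and do not stand for all of it. The SW620 counts lay above the 11.6% higher and 6.95% lower over all genes, but rest on few genes and were not tested against these shares. Across the settings the higher count in HCT116 was 17 to 24, and in SW620 3 to 8 higher and 1 to 3 lower. CDKN1A had log2 fold changes of 3.33 in HCT116 (adjusted p = 7.94e-06) and 0.71 in SW620 (0.0302, lost in 4 of 14 settings); MDM2 had 2.75 (0.000519) and 0.28 (not called). TP53I3, a quinone oxidoreductase, and SPATA18, a mitochondrial quality factor, rose in HCT116 by 3.80 and 2.99, with SPATA18 lost in 6 of 14 settings. SPATA18 was near the floor, with 12 counts over the HCT116 5-FU libraries and 101 with AFZC. It had 0 counts in SW620, and its value of 0 there is the list median. In SW620 DDB2 and FAS rose by 1.36 and 1.32, and BBC3, the PUMA gene, fell with -1.47 although it had risen by 0.76 in HCT116 (lost in 3). The list was chosen with earlier results of these samples known, and it is not independent evidence of its direction.

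Among 20 transcription factors that act on these families, 1 rose in HCT116, SMAD3 (0.92, lost in 3 of 14 settings). In SW620, 4 of 20 rose and 3 fell, among them BRCA1 (2.64), TP73 (2.40) and E2F1 (2.23), all 3 called in every setting run. Both counts lay above the 11.6% higher and 6.95% lower over all genes, but rest on few genes, and this was not tested. ATF4 was at -0.36 in HCT116 (not called) and fell in SW620 with -0.94 (adjusted p = 0.00979, lost in 3 of 14 settings), and FOXO3 was not called in either line (0.54 and -0.27). Among 15 ATF4 targets 2 rose in HCT116, NUPR1 (2.88, lost in 3) and ATF3 (2.97, lost in 9 of 14 settings). NUPR1 was near the floor, with 32 counts over the HCT116 5-FU libraries and 250 with AFZC. In SW620 2 of the 15 fell, DDIT4 (-2.19, lost in 5) and TRIB3 (-1.35, lost in 4). DDIT3, the CHOP gene, was not called (0.93 and -0.36). Among 12 FOXO and quiescence genes, KLF2 (-1.09, lost in 1) and KLHL24 (-0.84, lost in 3) fell in HCT116. In SW620 2 rose, CITED2 (0.82, lost in 3) among them, and 5 fell. The 5 included TXNIP (-1.40), the p27 gene CDKN1B (-0.80, lost in 2), KLHL24 (-0.76, lost in 4) and KLF2 (-0.67, lost in 6). For KLF2 and KLHL24 the difference between lines was not called (adjusted p = 0.393 and 0.904). TXNIP had 0 counts in HCT116, so no change could be measured there.

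Among 14 genes for GADD45 partners, 3 rose in HCT116 (1 to 5 over the settings): PCNA (1.24), the MAP kinase kinase MAP2K3 (0.92, lost in 3) and the glycosylase TDG (0.73, lost in 3). In SW620 3 rose, PCNA (2.03), CDK1 (1.77) and AURKA (1.12, lost in 6), and MAP2K3 fell (-0.76, lost in 3). Among the 16 tested BTG relatives and deadenylation partners, TOB1 took the same turn as BTG2: it rose in HCT116 from 84.5 ± 7.38 to 135 ± 5.05 CPM (SD, n = 2, log2 fold change 0.67, adjusted p = 0.0226, lost in 4 of 14 settings) and fell in SW620 from 199 ± 40.7 to 75.1 ± 1.88 CPM (-1.41, adjusted p = 0.000144). The difference between lines was -2.08 (adjusted p = 0.000299). PAN2, a deadenylase subunit, fell in HCT116 (-0.65, lost in 5). In SW620 5 of 16 fell, among them the poly(A)-binding protein PABPC1 (-1.12) and the methyltransferase PRMT1 (-0.72, lost in 4). TOB2 was called in neither line (0.16 and -0.30), and BTG4 had 6 counts in HCT116 in all and was not tested.

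Among 26 sestrin partners and amino acid sensing genes, PRKAB1, a subunit of AMPK, rose in HCT116 (0.79, lost in 2) and fell in SW620 (-0.50, lost in 10 of 14 settings). ULK1, the autophagy kinase (-0.67, lost in 3), and the autophagy receptor SQSTM1 (-0.62, lost in 4) also fell in SW620. The list medians were 0.14 in HCT116 and -0.14 in SW620, and the latter became 0.23 with library sizes only. List counts in SW620 moved with the settings: members called higher and lower ran from 3 to 6 and 0 to 4 for the transcription factors, 0 to 4 and 1 to 6 for the FOXO and quiescence genes, 2 to 5 and 0 to 1 for the GADD45 partners, 0 to 4 and 2 to 5 for the BTG relatives, and 0 to 6 and 0 to 4 for the sestrin partners. ATF4 targets called lower there ran from 0 to 9, and those called higher in HCT116 from 0 to 5. Library sizes only gave the upper end of the higher counts in SW620 for each of these lists and for the DNA damage response genes, other than the ATF4 targets. Of the named genes outside the families, 12 of 18 calls in HCT116 and 14 of 25 in SW620 were lost in at least 1 setting.

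**Figure D4:**
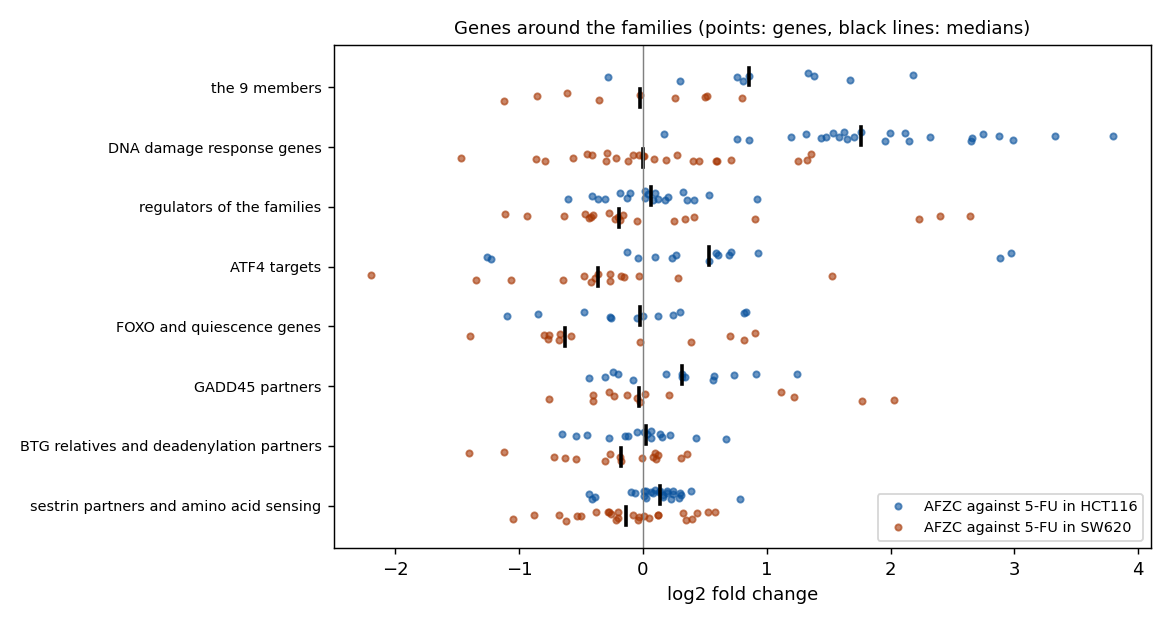
Log2 fold changes of AFZC against 5-FU for each gene of the 9 members and the 7 lists (horizontal axis; blue HCT116, brown SW620; black lines medians). The DNA damage response points of HCT116 all lie above 0, with a median of 1.76, while those of SW620 lie on both sides of 0.

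Levels over all 8 libraries were compared with those of 12244 genes by the root mean square difference of gene-centred log2 CPM, for the 6 members called in a treatment comparison. The closest gene was MAFK, a small MAF transcription factor, to GADD45A (0.119), then CARD10 (0.127). For BTG1 it was STK40 (0.128) and LRRC8A (0.15), for BTG3 CEP76 (0.121) and BRMS1L (0.136), for SESN1 PIDD1 (0.146) and ABCG2 (0.211), and for SESN2 BRMS1 (0.0997) and TAF3 (0.125). BTG2 had no gene as close as these: its nearest were ZNF600 (0.386) and DNAH2 (0.39). The members' own root mean square spread on this scale was 0.498 for SESN2, 0.631 for BTG3, 0.883 for BTG2, 0.922 for GADD45A, 0.96 for SESN1 and 1.44 for BTG1. A small distance is easier to reach for a gene that varies little, and each neighbour is the best match of 12244 genes.

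The members' spans in the table equalled those of GENCODE 29 (GRCh38): GADD45A on chromosome 1 from 67685061 to 67688338, BTG2 on chromosome 1 from 203305491 to 203309602, SESN2 on chromosome 1 from 28259527 to 28282491, SESN1 on chromosome 6 from 108986437 to 109094819, GADD45G on chromosome 9 from 89605013 to 89606555, SESN3 on chromosome 11 from 95165513 to 95232541, BTG1 on chromosome 12 from 92140278 to 92145897, GADD45B on chromosome 19 from 2476122 to 2478259 and BTG3 on chromosome 21 from 17593653 to 17612947. Exonic bases of 4 members were shared with other rows, and the libraries did not keep strand. BTG1 shared 503 bases with LINC01619 on its own strand, which had 97 and 113 counts in SW620 5-FU and 1337 and 771 in SW620 AFZC, and rose there with a log2 fold change of 3.13 ± 0.433 (adjusted p = 0.000553) while BTG1 fell. BTG1 also shared 325 bases with AC025164.1, BTG3 280 with BTG3-AS1, SESN1 363 with AL390208.1 and SESN3 93 with AP000787.1, each on the opposite strand. Those rows held at most 114 counts in a library, and only AP000787.1 was called among them in a comparison of the agents or its difference (difference between lines 2.18, adjusted p = 0.0469). The sources used here do not say how reads in shared bases were assigned.

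The 3′UTRs of the members differ in the pentamer ATTTA, the core of AU-rich elements. SESN3 held 29 in 7742 bases, BTG1 5 in 3802, BTG3 3 in 440, GADD45A 2 in 564, BTG2 2 in 2164 and SESN1 1 in 1107, and GADD45B, GADD45G and SESN2 held 0. Over 18923 genes the median was 1 in a median length of 872 bases, and the median density was 1.41 per kb. Per kb, BTG3 held 6.82, SESN3 3.75 and GADD45A 3.55, above that median. BTG1 with 1.32, BTG2 with 0.924 and SESN1 with 0.903 lay below it. These counts are descriptions of the annotated principal transcripts and were not related to the changes.

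**Figure D5:**
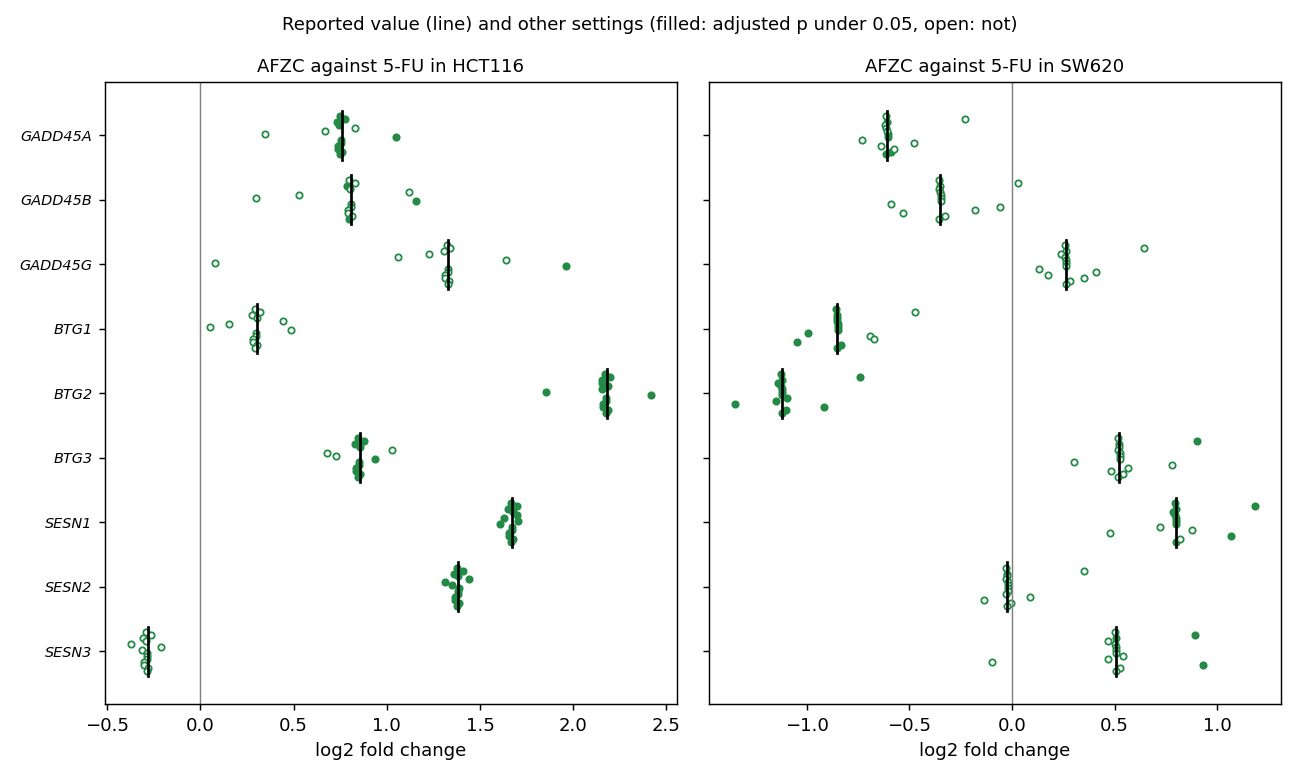
Log2 fold change of each member under the reported settings (black line) and the 14 others (points; filled for adjusted p under 0.05), with HCT116 on the left and SW620 on the right. BTG2 is filled throughout in both panels, SESN1 and SESN2 throughout in HCT116, and the points of SESN3 in SW620 run from -0.10 to 0.93.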

How the data were processed

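RNA from HCT116 and SW620 treated for 24 hours was measured in 8 libraries of poly(A)-selected, non-stranded RNA, per the labels' protocols. For each gene symbol the authors deposited the raw count of every library in 1 table, which was used as deposited; the submitters' processing notes list HISAT2 and STAR for alignment with featureCounts, FastQC, cutadapt and Trimmomatic, edgeR, DESeq2 and the build GRCh38. Which aligner made the counts is not given in the sources used here. In each library 1.68 to 1.84 genes had 2 counts for every gene that had 1, as when both mates of a fragment are counted, so single counts may not be independent. The deposited gene length, another value per the file headers, was used for levels per kb. Depth was 31991561 to 40590291 counts per library.

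Counts passed filterByExpr (minimum count 10; 21378 genes) in edgeR 4.0.16 (R 4.3.3) with TMM factors. A quasi-likelihood model of 4 group means was fitted to all 8 libraries (4 residual degrees of freedom, robust dispersion, biological coefficient of variation 19.9%), with 5 contrasts, two-sided tests, Benjamini-Hochberg adjustment over all genes and a threshold of 0.05. The SE is the size of the log2 fold change over the square root of F. Alternatives were RLE factors, library sizes only, no low-count filter, a replicate block, only the groups compared, DESeq2 1.42.0, and leaving out each library. Chi-square values between libraries of a group were 23.3 to 58.7 per degree of freedom, so no library was treated as a copy of another; this does not show that they were separate cultures. The labels do not name separate cultures, so p-values cover only the spread between libraries of a group, estimated over all 4 groups and possibly technical. The test was tested on simulated counts, where unchanged genes passed an unadjusted threshold at about the nominal rate. With each gene's own fitted dispersion the share of false calls among adjusted calls was 10.6%, above the nominal one. A call close to the threshold is therefore weak. Simulated 2-fold changes in HCT116 were recovered in 51.2% to 59.6% of genes, so a gene not called may still have changed.

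The members, gene lists and rules for named genes were chosen with earlier results of these data known. The named genes are the members, the 3 called members of each list with the largest change in each treatment comparison, CDKN1A, MDM2, FOXO3, ATF4, DDIT3, TOB1, TOB2 and BTG4, the 2 genes closest in pattern to each called member (mean log2 CPM of at least 1), and rows that share exonic bases with a member. Another gene of the rule is not reported here; the counts of its list include it. AP000787.1 was singled out after its value was seen. Promoters came from a RefSeq table (GRCh38.p14).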

Additional observations from a re-analysis of the deposited data

Results flagged for a closer look

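The effect of AFZC differed between SW620 and HCT116 by the test of the difference for 4 members and 17 other named genes, given as log2 values, SW620 minus HCT116. Over all genes 5.65% were called higher and 4.14% lower in this test. Most of the 17 were named because they were called in the treatment comparisons, which use the same libraries, so their number is not a result. Their differences were not followed gene by gene over the settings. The members were BTG2 (-3.30), SESN2 (-1.41), GADD45A (-1.37) and BTG1 (-1.16), with the calls of GADD45A and BTG1 lost in some settings. Among DNA damage response genes, TP53I3 differed by -3.62, CDKN1A by -2.62, MDM2 by -2.47, BBC3 by -2.23 and FAS by -1.34. Among partners and relatives, TOB1 differed by -2.08, MAP2K3 by -1.68, PRKAB1 by -1.29, ULK1 by -0.97, SQSTM1 by -0.87, TDG by -0.78, CDK1 by 1.19 and PAN2 by 1.01. Among regulators, BRCA1 differed by 2.46, E2F1 by 2.41, TP73 by 2.07 and SMAD3 by -0.97. No cause was tested.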

How the results depend on the processing

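Over the members' values, 569 kept direction and call side against the reported setting, 25 lost and 20 gained a call, and 7 turned sign, none of them called. With library sizes only the median over all genes in SW620 was 0.40, against 0.03 with TMM, and higher calls were 92.0% of calls there instead of 62.6%, 85.1% instead of 57.7% for the difference and 35.6% instead of 48.5% between lines under 5-FU. Relative to that median BTG1 and BTG2 were at -0.88 and -1.14 in SW620. The values that turned sign were with library sizes only SESN2 (0.35) and GADD45B (0.0308) in SW620 and the BTG3 difference (0.0279); without replicate 1 of SW620 AFZC SESN2 (0.0876) and SESN3 (-0.0960) in SW620; and without replicate 1 of HCT116 AFZC the GADD45G difference (0.19) and GADD45G between lines under AFZC (0.77). Over the left-out libraries these 4 ran from -0.14 to 0.0876, from -0.0960 to 0.93, from -1.70 to 0.19 and from -1.11 to 0.77. The cause was not tested. Leaving out each library moved genes called from 2054 to between 305 and 2723 in HCT116, from 3968 to 1583 to 4437 in SW620 and from 2091 to 757 to 2460 for the difference; members higher from 5 to 3 to 7 in HCT116, from 1 to 0 to 2 in SW620 and from 0 to 0 to 1 for the difference; and members lower from 2 to 1 to 3 in SW620 and from 4 to 2 to 5 for the difference. These fits have fewer libraries, and the lone library of a group is assumed to vary like the other groups. Members higher in SW620 were 3 with library sizes only, 3 with no filter and 0 in a fit to the groups compared, members lower there were 1 with library sizes only, and 1 member was higher in the difference with no filter. With the replicate block the genes called were 1829 in HCT116, 3655 in SW620, 1831 for the difference, 11376 between lines under 5-FU and 10188 under AFZC, and the counts of members called did not change; replicate deviations of equal numbers correlated by -0.102 to 0.0952, and no label pairs them. Depth limits GADD45G, with 46 to 123 counts a group.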
